A study of Fukomys damarensis and Heterocephalus glaber and Cavia porcellus with 28 samples.

Results

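Heart and liver RNA of naked mole-rat, Damaraland mole-rat, guinea pig and mouse was compared for the nuclear genes whose proteins make up respiratory chain complexes II, III and IV and the ATP synthase, complex V. The members were the rows of the heart and liver tables whose mouse symbol was Sdha, Sdhb, Sdhc, Sdhd or Cyc1 or began with Uqcr, Cox4 to Cox8 or Atp5. The rule found 43 of 13928 rows, of which 4 belong to complex II, 9 to complex III, 14 to complex IV and 16 to complex V. It matches symbols and not measured values, although it was set with earlier results of these data known. Cox7a2l, a factor that joins complexes III and IV into supercomplexes, and Atp5s, known as factor B of the ATP synthase, also match the rule although neither is a core subunit. A further 13 matching mouse symbols had no row, among them Atp5g2, the striated muscle isoform Cox6a2 and the lung isoform Cox4i2, and are not analysed here.

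The study was designed to compare gene expression between 2 mole-rat species and 2 outgroup rodents, and the 28 libraries of ribosomal RNA-depleted total RNA came from 18 animals, 10 of which gave both tissues. Hearts came from 3 naked mole-rats of 13, 15 and 17 months, 5 Damaraland mole-rats of 36 or 48 months, 3 guinea pigs of 2.3 months and 3 mice of 2 months. Livers came from 4 naked mole-rats of 13 to 17 months, 5 Damaraland mole-rats of 36 or 48 months, 3 guinea pigs of 2.3 months and 2 mice of 2 months. All animals were labelled male except the Damaraland mole-rat of liver replicate 4, and 1 Damaraland animal carries different ages for its heart and its liver. No animal was labelled as treated or genetically altered. Because each species was sampled at its own age, species and age cannot be told apart.

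Complex II, succinate dehydrogenase, passes electrons from succinate to ubiquinone and is the only respiratory complex built wholly from nuclear genes. Complex III passes electrons from ubiquinol to cytochrome c, and complex IV, cytochrome c oxidase, passes them on to oxygen. Both pump protons out of the mitochondrial matrix, and the ATP synthase uses the returning protons to make ATP. Heart muscle is among the tissues richest in mitochondria, and several complex IV subunits exist as a striated muscle isoform and a liver or ubiquitous isoform encoded by separate genes.

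Summed reads ranged from 4089633 to 26985779 per heart library and from 11220505 to 21467939 per liver library, with naked mole-rat heart replicate 3 the shallowest. Reads of mitochondrially encoded genes made up at most 0.0279% of each Damaraland heart library against 5.42 to 26.9% of the heart libraries of the other species, so shares below are of nuclear gene reads. The labelled tissues were checked against defining genes: hepatocyte markers summed to 800483 scaled reads or more in every liver, and cardiomyocyte markers to 418772 or more in every heart against at most 3014 in any liver. Hepatocyte markers also had reads in heart, at 10398 to 29206 in naked mole-rat, 3326 to 6649 in Damaraland, 3796 to 5338 in guinea pig and 318.5 to 1071 in mouse hearts, and their part in the heart results was not tested. Markers of Kupffer cells, the macrophages of the liver, were not analysed here. Values of a gene are on the variance-stabilised scale the authors deposited, which approaches log2 for well expressed genes; a difference of 1 is then about 2-fold and is smaller than the true fold for low genes. Scaled reads are the reads behind a value divided by the size factor of its library. Neither quantity is corrected for gene length, so levels are compared between species and not between genes. The isoform shares below are the exception. A floor of 5.36 in heart and 4.29 in liver stands for 0 reads.

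Together the 43 genes took a larger share of nuclear gene reads in mouse heart than in naked mole-rat or guinea pig heart. The share was 2.34 to 2.40% in the naked mole-rat hearts, 2.58 to 3.85% in the Damaraland hearts, 2.75 to 2.96% in the guinea pig hearts and 3.79 to 3.83% in the mouse hearts. The mouse hearts overlapped only with the Damaraland hearts, whose own libraries spread widely, and every naked mole-rat heart lay below every heart of the other species. In liver the share of the 4 naked mole-rats was 0.740 to 0.838%, that of the Damaraland animals 0.589 to 0.780%, that of the guinea pigs 0.613 to 0.664% and that of the mice 1.21 to 1.30%. Both mouse livers stood above every other liver. With 3 hearts in 3 of the species and 2 mouse livers, these ranges are given without a test.

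The shares were not spread evenly over the complexes. Complex II took 0.279 to 0.350% of nuclear reads in the naked mole-rat hearts and 0.354 to 0.386% in the mouse hearts. Its share was 0.260 to 0.331% in the Damaraland hearts and 0.252 to 0.308% in the guinea pig hearts. Both overlapped with naked mole-rat, and the lowest mean was that of guinea pig. Complex V, the largest contributor, took 1.08 to 1.20% in the naked mole-rat hearts, 1.34 to 2.06% in the Damaraland hearts, 1.40 to 1.65% in the guinea pig hearts and 1.97 to 2.00% in the mouse hearts. For complex IV the shares were 0.447 to 0.510% in naked mole-rat, 0.531 to 0.791% in Damaraland, 0.487 to 0.640% in guinea pig and 0.771 to 0.797% in mouse hearts. Complex III took 0.361 to 0.490%, 0.403 to 0.677%, 0.465 to 0.513% and 0.658 to 0.681% respectively. In liver, complex IV took 0.0990 to 0.132% in the Damaraland animals, below every liver of naked mole-rat (0.176 to 0.195%), guinea pig (0.161 to 0.204%) and mouse (0.262 to 0.294%). Complex II was lowest in the guinea pig livers, at 0.0715 to 0.0791%, against 0.0960 to 0.128% in Damaraland and 0.121 to 0.137% in naked mole-rat livers. Cardiomyocyte marker genes, 6 of 6 listed, summed to 418772 to 902236 scaled reads in naked mole-rat, 1121918 to 1564093 in Damaraland, 678054 to 789041 in guinea pig and 929612 to 1035856 in mouse hearts. Fibroblast markers, 4 of 5 listed, summed to 42415 to 114855 in guinea pig hearts against 10541 to 23218, 9959 to 42449 and 7419 to 9860 in naked mole-rat, Damaraland and mouse hearts. Their part in these shares was not tested, and in bulk tissue fewer cells of a type and less RNA per cell cannot be told apart. How rows of different species were matched to 1 mouse gene is not given in the sources used here, so a species difference in RNA level and one in how the reads of a gene were counted cannot be told apart either.

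**Figure D1:**
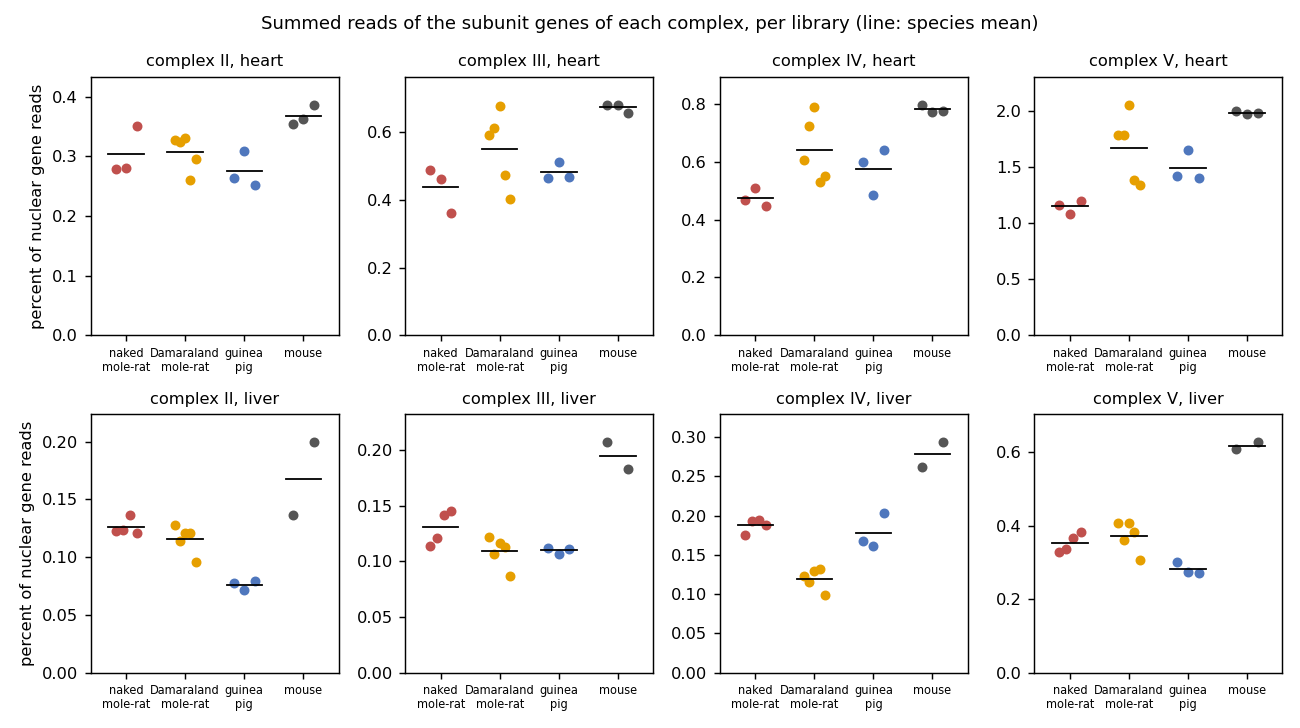
Summed reads of the subunit genes of complexes II, III, IV and V as a percent of nuclear gene reads (vertical axis, starting at 0) in each library, by species, with heart above and liver below; a point is a library and a line the species mean. The mouse mean is the highest in every panel, the Damaraland hearts spread most in complexes III to V, and the Damaraland livers lie lowest for complex IV.

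Differences between species were tested gene by gene with limma over all genes above a low-value filter, which were 10667 in heart and 10887 in liver. Throughout, a difference was called where its size was at least 1 and its adjusted p below 0.05. The filter kept 42 of the 43 members in heart and 41 in liver. For the mean of the mole-rats minus the mean of the outgroups, 11 members were called lower and 1 higher in heart, where 12.6% of all tested genes were called lower and 10.8% higher. Of the 42 members, 33 had a negative difference, and the median over them was -0.55 against -0.01 over all tested genes. In liver 6 members were called lower and 1 higher, against 13% and 15.1% of all tested genes, with a median of -0.16 against 0.02. The liver count lower is close to the share among all genes, while the heart count is above it.

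By complex, the heart calls fell on complexes III, IV and V. No complex II gene of 4 was called, 1 complex III gene was higher and 1 lower of 9, 5 of 13 complex IV genes were lower, and 5 of 16 complex V genes were lower. Of all tested genes 10.8% were called higher and 12.6% lower, so the complex III counts lie near those shares. The medians were 0.02 for complex II, -0.42 for complex III, -0.84 for complex IV and -0.67 for complex V. In liver 1 complex II gene was higher, and 2 of 9 complex III, 2 of 12 complex IV and 2 of 16 complex V genes were lower, with medians of 0.71, -0.25, -0.36 and -0.07 in that order. Of all tested liver genes 15.1% were called higher and 13% lower. The complex IV and V counts lie near the share lower.

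Among the species pairs in heart, the comparisons with mouse held the most calls, nearly all of them lower than in mouse. Naked mole-rat hearts had 0 members called higher and 25 called lower than mouse hearts, against 18% and 20.2% of all tested genes. Damaraland hearts had 1 member called higher and 15 called lower than mouse hearts, against 16.9% and 18% of all tested genes. Guinea pig hearts had 1 member called higher and 15 called lower than mouse hearts, against 15.2% and 16.9% of all tested genes. Away from mouse the calls were more mixed: naked mole-rat hearts had 2 members called higher and 12 called lower than Damaraland hearts, against 14.2% and 15.2% of all tested genes. Naked mole-rat hearts had 4 members called higher and 7 called lower than guinea pig hearts, against 16% and 17% of all tested genes. Damaraland hearts had 7 members called higher and 5 called lower than guinea pig hearts, against 14.7% and 15.1% of all tested genes. These comparisons share libraries, so the counts are not independent of each other.

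In liver mouse was again the species with the most members on the high side, and naked mole-rat stood above Damaraland mole-rat and guinea pig more often than below. Naked mole-rat livers had 2 members called higher and 10 called lower than mouse livers, against 21.1% and 20.1% of all tested genes. Damaraland livers had 0 members called higher and 16 called lower than mouse livers, against 20.9% and 18.4% of all tested genes. Guinea pig livers had 0 members called higher and 17 called lower than mouse livers, against 18.8% and 18.4% of all tested genes. Between the mole-rats the larger count was on the higher side, since naked mole-rat livers had 13 members called higher and 4 called lower than Damaraland livers, against 16.6% and 17.6% of all tested genes. Naked mole-rat livers had 10 members called higher and 3 called lower than guinea pig livers, against 19.4% and 18.5% of all tested genes. Damaraland livers had 5 members called higher and 4 called lower than guinea pig livers, against 19.1% and 17.1% of all tested genes. Whether the balance of higher and lower calls between the mole-rats differed between heart and liver was not tested.

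Ranked by species mean, mouse had the highest mean for 34 of 42 members in heart, or 81%, against 28% of all tested genes, and for 29 of 41 members in liver, or 70.7%, against 26.3%. It had the lowest mean for 0 members in either tissue, against 28.3% of all tested genes in heart and 29.3% in liver. The lowest heart mean belonged to naked mole-rat for 20 members, to guinea pig for 13 and to Damaraland mole-rat for 9. These are 47.6%, 31% and 21.4%, against 25.4%, 23.8% and 22.5% of all tested genes. The lowest liver mean belonged to guinea pig for 18, to Damaraland mole-rat for 16 and to naked mole-rat for 7. Those are 43.9%, 39% and 17.1%, against 24.2%, 21.5% and 25%.

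**Figure D2:**
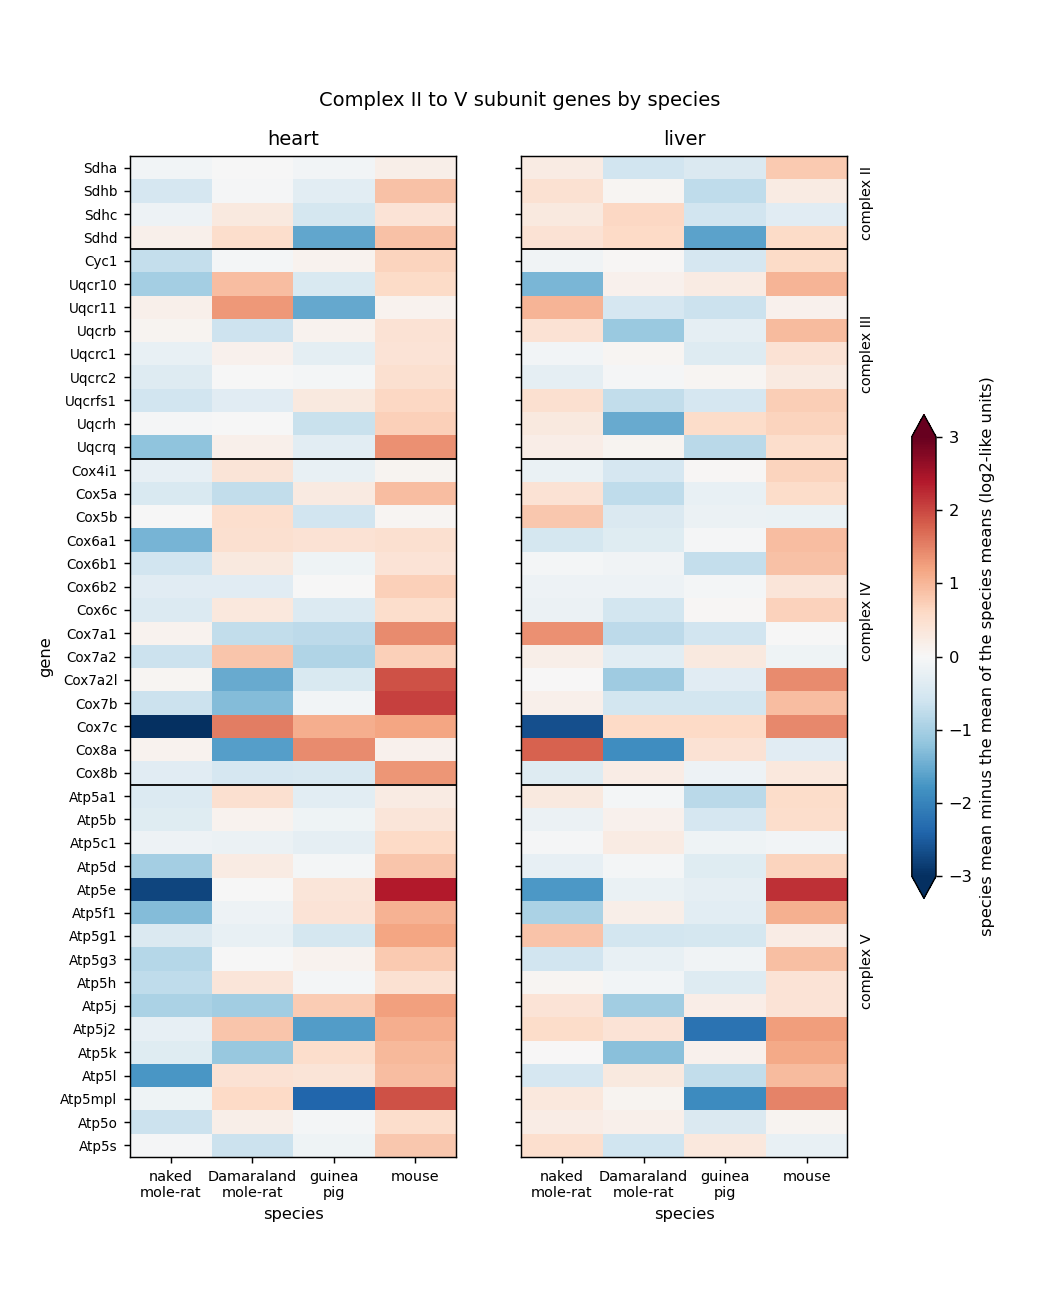
Species mean of each member minus the mean of its 4 species means, in log2-like units, as a colour (rows are genes ordered by complex, columns are species, heart on the left and liver on the right). The mouse columns are mostly on the high side, Cox7c and Atp5e in naked mole-rat form the deepest low cells in heart, Cox7c again in liver, and Cox8a in Damaraland mole-rat is low in both.

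In complex II the flavoprotein Sdha, which holds the succinate binding site, differed little between species in heart. Its mean was 14.35 ± 0.16 (SD, n = 3) in naked mole-rat, 14.44 in Damaraland, 14.36 in guinea pig and 14.62 in mouse heart, and the mole-rat minus outgroup difference was -0.10 (SE 0.13, limma adjusted p = 0.526). The iron-sulphur subunit Sdhb was called lower than in mouse in naked mole-rat heart, at -1.39 (SE 0.22, limma adjusted p = 3.18e-05), and in guinea pig heart, at -1.20 (SE 0.22). In liver Sdha was lower than in mouse in Damaraland mole-rat, at -1.36 (SE 0.26), and in guinea pig, at -1.21 (SE 0.28). Both calls rested on mouse liver replicate 2 and were lost without it, at -0.80 and -0.66.

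Sdhd, a membrane anchor of complex II that helps to hold its haem, was low in guinea pig. In heart, the Sdhd value was 11.88, 11.69 and 12.0 in naked mole-rat, 12.71, 12.43, 12.45, 11.93 and 11.69 in Damaraland, 10.17, 10.32 and 9.93 in guinea pig and 12.55, 12.63 and 12.59 in mouse libraries. In liver, the Sdhd value was 11.12, 11.25, 11.22 and 11.05 in naked mole-rat, 11.56, 11.35, 11.54, 11.41 and 10.79 in Damaraland, 9.40, 8.79 and 9.14 in guinea pig and 11.34 and 11.27 in mouse libraries. The guinea pig libraries did not overlap with any other library in either tissue. Guinea pig minus mouse was -2.45 (SE 0.23, limma adjusted p = 1.07e-07) in heart and -2.19 (SE 0.22, limma adjusted p = 2.66e-07) in liver, and naked mole-rat minus guinea pig was 1.72 (SE 0.23) and 2.05 (SE 0.19). Sdhd was the 1 member called higher in the mole-rats than in the outgroups in liver, at 1.04 (SE 0.14, limma adjusted p = 4.16e-06). The 4 naked mole-rat livers, 11.12, 11.25, 11.22 and 11.05, lay below both mouse livers. The call was lost without guinea pig replicate 2, at 0.96. The other anchor, Sdhc, was higher in Damaraland than in guinea pig liver, at 1.21 (SE 0.17), and its mole-rat minus outgroup difference of 0.91 (SE 0.13, limma adjusted p = 7.44e-06) was below the size threshold.

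Of the complex III genes, the core protein Uqcrc1 had similar levels in all 4 species, with heart means from 13.74 to 14.44 and liver means from 11.13 to 11.95, and was called in no comparison. Its partner Uqcrc2 was also called in none. Cyc1, which encodes cytochrome c1, was lower in naked mole-rat than in mouse heart, at -1.39 (SE 0.26), and lower in guinea pig than in mouse liver, at -1.08 (SE 0.22). Uqcrfs1, the Rieske iron-sulphur protein, was lower in naked mole-rat than in mouse heart, at -1.20 (SE 0.40), although its naked mole-rat hearts spread from 11.13 to 13.33. In liver Uqcrfs1 was higher in naked than in Damaraland mole-rat, at 1.23 (SE 0.16).

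The small supernumerary subunits of complex III, which surround the catalytic core, varied more. In heart, the Uqcr11 value was 12.61, 12.72 and 12.28 in naked mole-rat, 13.59, 14.05, 14.32, 13.26 and 13.27 in Damaraland, 10.67, 10.89 and 10.98 in guinea pig and 12.47, 12.50 and 12.49 in mouse libraries. In liver, the Uqcr11 value was 11.27, 11.77, 11.86 and 12.36 in naked mole-rat, 10.30, 10.47, 10.24, 10.60 and 9.88 in Damaraland, 10.24, 9.63 and 10.58 in guinea pig and 11.05 and 10.79 in mouse libraries. The Damaraland hearts were thus all above, and the guinea pig hearts all below, every heart of the other species, and Uqcr11 was the 1 member called higher in the mole-rats than in the outgroups in heart, at 1.45 (SE 0.17, limma adjusted p = 9.54e-07). The mole-rats stood in opposite order in the tissues: naked minus Damaraland was -1.16 (SE 0.22, limma adjusted p = 0.00025) in heart and 1.52 (SE 0.22, limma adjusted p = 1.04e-05) in liver.

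Uqcr10, Uqcrq, Uqcrb and Uqcrh each followed a course of their own. For Uqcr10 the liver value was 8.39, 8.62, 8.07 and 8.83 in naked mole-rat, 10.15, 9.96, 10.04, 10.16 and 9.63 in Damaraland, 10.68, 9.45 and 10.18 in guinea pig and 10.94 and 10.80 in mouse libraries. The naked mole-rat livers were below all others, with naked minus mouse at -2.39 (SE 0.27, limma adjusted p = 7.8e-07), and in heart naked minus Damaraland was -1.96 (SE 0.24). For Uqcrq, a ubiquinone-site subunit, the heart value was 11.64, 11.22 and 10.79 in naked mole-rat, 12.59, 13.04, 13.01, 12.30 and 11.89 in Damaraland, 12.10, 11.63 and 12.54 in guinea pig and 13.77, 13.85 and 13.77 in mouse libraries. Mouse hearts stood above all others; naked minus mouse was -2.58 (SE 0.30, limma adjusted p = 1.08e-06). The mole-rat minus outgroup call, at -1.05 (SE 0.20), was lost without guinea pig replicate 3 (-0.94), Damaraland replicate 5 (-0.97) or naked mole-rat replicate 3 (-0.95). For Uqcrh, the hinge protein that contacts cytochrome c1, the liver value was 10.29, 10.45, 10.90 and 10.35 in naked mole-rat, 8.52, 8.78, 8.72, 9.05 and 8.41 in Damaraland, 10.39, 10.80 and 11.06 in guinea pig and 11.22 and 10.55 in mouse libraries. Here the Damaraland livers were the low ones, with naked minus Damaraland at 1.80 (SE 0.19, limma adjusted p = 2.12e-07). Uqcrb was lower in Damaraland than in mouse in both tissues, at -1.07 (SE 0.20) in heart and -2.07 (SE 0.21) in liver.

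Differences between species in heart were widest in complexes IV and V. Their median ranges over the 4 species means were 1.82 and 1.78, against 1.41 over all tested genes. In liver they were 1.46 and 1.44, against 1.58. Cox7c (listed under ENSMUSG00000017778), a small nuclear subunit made in heart and liver alike, was low in naked mole-rat in both tissues. In heart, the Cox7c value was 7.84, 7.31 and 8.89 in naked mole-rat, 13.14, 13.67, 13.92, 12.96 and 13.22 in Damaraland, 12.76, 13.03 and 13.05 in guinea pig and 13.01, 13.03 and 13.07 in mouse libraries. In liver, the Cox7c value was 8.57, 8.46, 6.74 and 6.80 in naked mole-rat, 11.08, 10.82, 11.03, 11.06 and 10.45 in Damaraland, 10.77, 10.71 and 11.16 in guinea pig and 11.29 and 12.15 in mouse libraries. No naked mole-rat library reached the lowest library of another species in either tissue. Naked minus Damaraland was -5.37 (SE 0.28, limma adjusted p = 9.25e-11) in heart and -3.25 (SE 0.34, limma adjusted p = 1.87e-07) in liver, and naked minus guinea pig in liver was -3.24 (SE 0.38). Within naked mole-rat liver the animals fell apart, since replicates 1 and 2 stood at 8.57 and 8.46 and replicates 3 and 4 at 6.74 and 6.80, so that the SD was 1.01, against 0.27 in Damaraland liver.

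Cox6a1, the non-muscle isoform of subunit VIa, was low in naked mole-rat heart. In heart, the Cox6a1 value was 8.25, 8.45 and 8.47 in naked mole-rat, 9.72, 10.40, 10.92, 9.75 and 10.53 in Damaraland, 9.71, 10.61 and 10.39 in guinea pig and 10.32, 10.44 and 10.10 in mouse libraries. Naked mole-rat hearts were below all others, with naked minus mouse at -1.89 (SE 0.28, limma adjusted p = 2.05e-05), and the other species did not differ by a called amount. In liver the mouse was higher instead, with naked minus mouse at -1.44 (SE 0.25) and Damaraland minus mouse at -1.28 (SE 0.24).

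Cox7a2l, whose protein links complexes III and IV, was high in mouse and low in Damaraland mole-rat. In heart, the Cox7a2l value was 9.87, 10.07 and 9.75 in naked mole-rat, 9.01, 8.55, 8.22, 8.17 and 7.69 in Damaraland, 9.68, 8.89 and 9.52 in guinea pig and 11.64, 11.78 and 11.78 in mouse libraries. Mouse hearts lay above, and 4 of the 5 Damaraland hearts below, every heart of the other species, with Damaraland minus mouse at -3.40 (SE 0.24, limma adjusted p = 2.61e-09). The same difference was -2.49 (SE 0.26) in liver. The call between Damaraland and guinea pig heart, -1.03 (SE 0.24), was lost without guinea pig replicate 1 (-0.88) or 3 (-0.96) and without Damaraland replicate 4 (-0.99) or 5 (-0.88). The liver mole-rat minus outgroup call, -1.07 (SE 0.17), was lost without guinea pig replicate 3 (-0.95) or mouse replicate 1 (-0.98), and naked minus Damaraland, 1.08 (SE 0.21), without Damaraland replicate 1 (0.96) or naked mole-rat replicate 2 (0.95).

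The remaining complex IV genes without isoforms gave smaller or more scattered differences. Cox5a, a matrix-side subunit, was lower in the mole-rats than in the outgroups in heart, at -1.19 (SE 0.17, limma adjusted p = 1.25e-05), with means of 12.19 in naked mole-rat, 11.92 in Damaraland, 12.92 in guinea pig and 13.57 in mouse. Its call between Damaraland and guinea pig heart, -1.0 (SE 0.23), was lost without any 1 of guinea pig replicates 1 (-0.98) and 3 (-0.997) and Damaraland replicates 4 (-0.91) and 5 (-0.92). Cox5b, its zinc-binding neighbour, was higher in naked than in Damaraland mole-rat liver, at 1.23 (SE 0.17, limma adjusted p = 6.19e-06). Cox4i1, the ubiquitous form of the regulatory subunit IV, was called only once, in Damaraland minus mouse liver at -1.17 (SE 0.28), and not without mouse replicate 2 (-0.85). For Cox7b the heart value was 10.65, 10.81 and 11.30 in naked mole-rat, 12.13, 10.38, 10.41, 9.97 and 8.47 in Damaraland, 12.54, 11.38 and 10.51 in guinea pig and 13.54, 13.63 and 13.66 in mouse libraries. The mouse hearts were the highest and varied least, while the Damaraland hearts ran from 8.47 to 12.13; naked minus mouse was -2.69 (SE 0.62, limma adjusted p = 0.00118). Cox6b1 was called only for guinea pig minus mouse in liver, at -1.59 (SE 0.33), and Cox6c only for Damaraland minus mouse in liver, at -1.24 (SE 0.29). Cox6b2, the testis isoform, had 0 reads in all mole-rat libraries, 1 to 5 reads in the guinea pig hearts and 27 to 44 in the mouse hearts, and was not tested in either tissue.

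**Figure D3:**
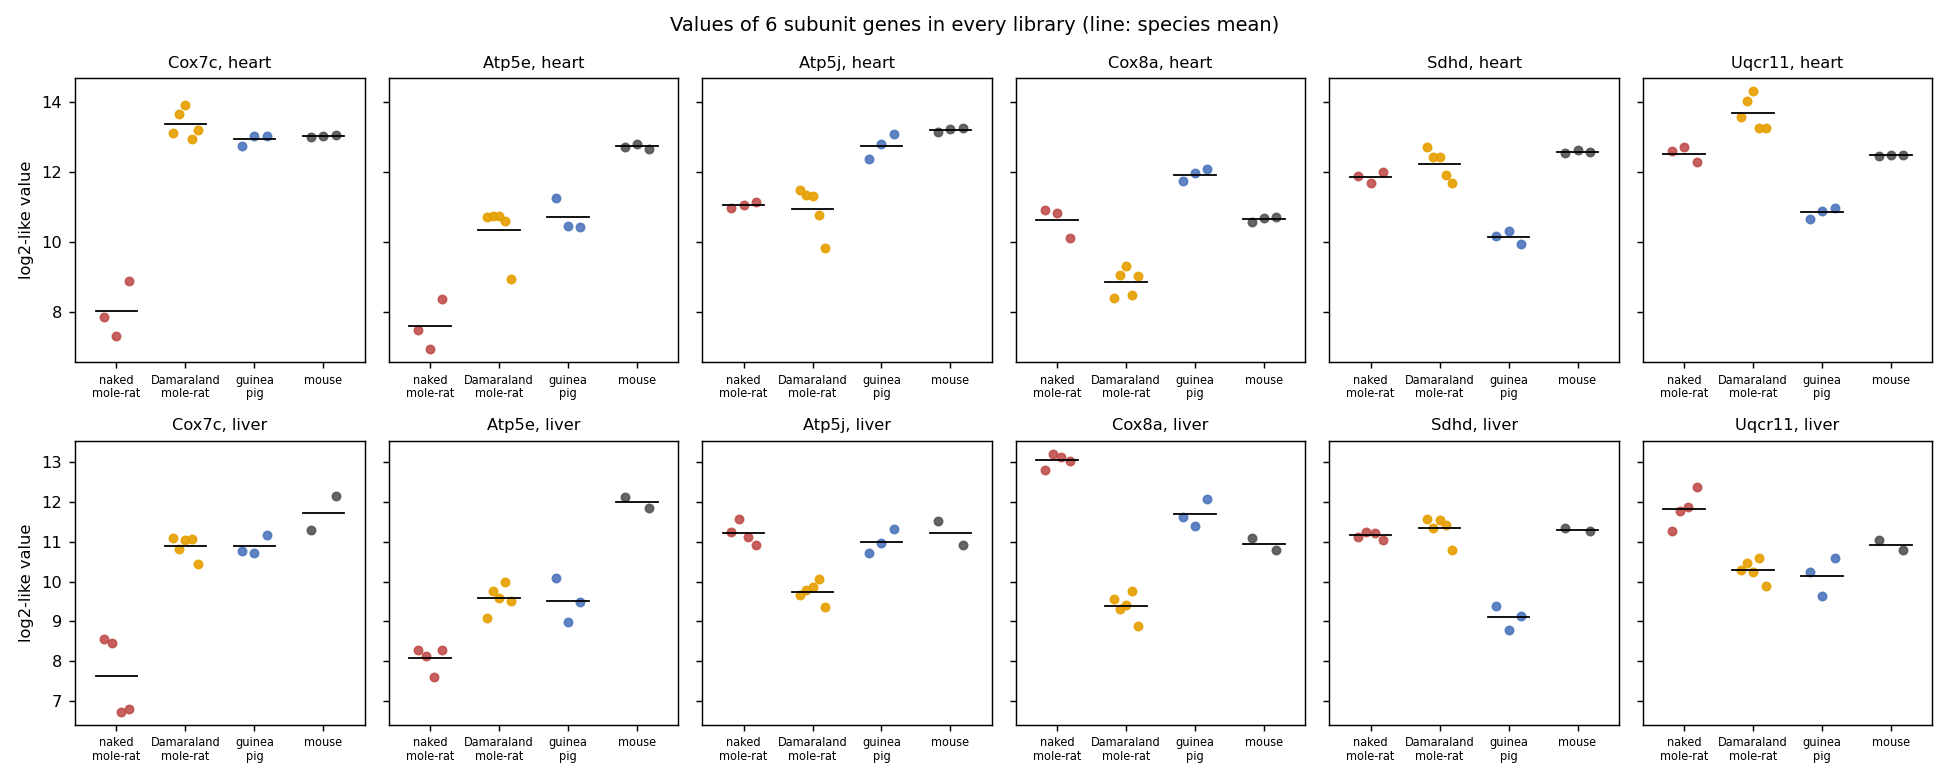
Values of Cox7c, Atp5e, Atp5j, Cox8a, Sdhd and Uqcr11 in every library (vertical axis, log2-like values) by species, with heart and liver in separate panels; points are libraries and lines species means. Naked mole-rat is lowest for Cox7c and Atp5e in both tissues, Damaraland mole-rat is lowest for Cox8a and guinea pig is lowest for Sdhd in both, and the order of the mole-rats for Uqcr11 is reversed between the tissues.

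The muscle and liver isoforms of complex IV were set apart as shares of reads. Of subunits VIIa and VIII both isoforms had rows: Cox7a1 and Cox8b are the striated muscle forms, and Cox7a2 and Cox8a the forms of liver and most other tissues. Subunits IV and VIa had only Cox4i1 and Cox6a1; their partners are not analysed here. Cox7a1 took 73.0 ± 1.85% (SD, n = 3) of the reads of both VIIa genes in naked mole-rat heart, 72.0 ± 0.269% (SD, n = 3) in mouse heart and 63.1 ± 4.62% (SD, n = 3) in guinea pig heart, but 34.4 ± 8.11% (SD, n = 5) in Damaraland heart, where Cox7a2 gave the larger part in every library. The Damaraland hearts ranged over 22.4 to 41.7% and did not overlap with the 59.4 to 68.3% of guinea pig, 71.1 to 74.8% of naked mole-rat or 71.8 to 72.3% of mouse. Taken singly, Cox7a2 was higher in Damaraland than in naked mole-rat heart, with naked minus Damaraland at -1.49 (SE 0.32, limma adjusted p = 0.000651). Damaraland minus guinea pig was 1.73. Cox7a2 was not called between Damaraland and mouse heart. It was called lower than in mouse in naked mole-rat (-1.36) and guinea pig heart (-1.60). Cox7a1 was called lower than in mouse in all 3 other species, with guinea pig minus mouse at -2.21. The Cox7a1 heart value was 12.16, 11.89 and 12.07 in naked mole-rat, 11.70, 11.45, 11.86, 10.60 and 10.44 in Damaraland, 11.46, 10.57 and 11.43 in guinea pig and 13.36, 13.32 and 13.40 in mouse libraries. Mouse hearts lay above all others, and Damaraland minus mouse was -2.15 (SE 0.29, limma adjusted p = 6.79e-06). Smooth muscle markers summed to 9280 to 14470 scaled reads in Damaraland hearts, against at most 5783 in any other heart. Skeletal muscle markers summed to 111313 to 194569 in Damaraland hearts, against at most 73416 in any other heart. The part of either in the VIIa shares was not tested.

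For subunit VIII the guinea pig heart stood apart. Cox8b took 84.1 to 85.6% of the reads of both VIII genes in mouse hearts, 74.5 to 95.1% in Damaraland hearts, 50.7 to 83.1% in naked mole-rat hearts and 31.6 to 43.4% in guinea pig hearts. The naked mole-rat range was set by replicate 3, the shallowest library, at 83.1%, with the other naked mole-rat hearts at 52.1% and 50.7%. Guinea pig was the 1 species in which the liver form Cox8a had more heart reads than Cox8b in every library. The Cox8a heart value was 10.93, 10.84 and 10.11 in naked mole-rat, 8.41, 9.07, 9.32, 8.48 and 9.03 in Damaraland, 11.74, 11.99 and 12.08 in guinea pig and 10.57, 10.67 and 10.71 in mouse libraries. Guinea pig hearts were above and Damaraland hearts below all others, with Damaraland minus guinea pig at -3.07 (SE 0.22, limma adjusted p = 4.66e-09) and naked minus Damaraland at 1.76 (SE 0.22, limma adjusted p = 3.35e-06). Cox8b in turn was lower than in mouse heart in naked mole-rat (-1.64 (SE 0.41)), Damaraland (-1.82 (SE 0.37)) and guinea pig (-1.79 (SE 0.41)).

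In liver the muscle isoforms were nearly silent, with a small exception in naked mole-rat. Cox8b had 0 to 10 reads per liver library. Cox7a1 took 9.21 to 13.9% of VIIa reads in naked mole-rat livers, 2.32 to 5.75% in mouse, 0.599 to 2.05% in guinea pig and 0.321 to 2.12% in Damaraland livers. Its liver value was 7.40, 7.38, 7.57 and 7.25 in naked mole-rat, 5.30, 5.54, 5.30, 5.37 and 4.76 in Damaraland, 5.77, 5.12 and 5.51 in guinea pig and 5.87 and 6.19 in mouse libraries. The naked mole-rat livers were above all others, with 94 to 180 reads, and naked minus Damaraland was 2.14 (SE 0.18, limma adjusted p = 1.26e-08). The Damaraland livers held 2 to 17 reads, near the floor, so the size of this difference is uncertain. It ran from 2.02 to 3.88 over the alternatives, and a filter on low values in each species left the gene untested. Cardiomyocyte genes summed to 802.9 to 1478 scaled reads in naked mole-rat livers, 1448 to 2984 in Damaraland, 441.2 to 3014 in guinea pig and 877 to 1286 in mouse livers. Skeletal muscle genes summed to 120.7 to 253.4 in naked mole-rat, 276.2 to 488.9 in Damaraland, 38.83 to 373.5 in guinea pig and 79.73 to 285.5 in mouse livers. The part of muscle RNA in the Cox7a1 values was not tested. The liver form Cox8a had the widest difference between the mole-rats of any member in liver, since its value was 12.80, 13.20, 13.12 and 13.03 in naked mole-rat, 9.56, 9.32, 9.42, 9.76 and 8.88 in Damaraland, 11.62, 11.40 and 12.07 in guinea pig and 11.09 and 10.78 in mouse libraries. Naked minus Damaraland was 3.65 (SE 0.18, limma adjusted p = 1.54e-11), and the order of naked mole-rat and guinea pig was the reverse of that in heart, at 1.34 (SE 0.21) in liver and -1.31 (SE 0.25) in heart.

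The balance of muscle to liver isoform, as log2 of the ratio of reads with 0.5 added to each, was higher in every heart than in any liver of its species. For Cox7a1 over Cox7a2, heart minus liver was 4.41 in naked mole-rat, 5.39 in Damaraland, 7.19 in guinea pig and 6.06 in mouse. An exact two-sided permutation test, adjusted over the 8 tests of 2 isoform pairs in 4 species, gave p = 0.03175 in Damaraland mole-rat for each pair, and leaving out any 1 of its libraries brought this to 0.06349. The test took libraries as independent, but the Damaraland libraries came from 6 animals, of which 4 gave both tissues. Over those 4 animals alone the heart balance was higher in 4 of 4, with an unadjusted exact sign-flip permutation p of 0.125, the smallest that 4 pairs allow. In the other species the number of libraries could not bring the unadjusted exact p below 0.05714 in naked mole-rat, 0.1 in guinea pigs and 0.2 in mice, which are the values obtained. For Cox8b over Cox8a heart minus liver was 9.55 in Damaraland mole-rat, a value that depends on the reads added to liver counts of at most 10 and is no measure of size. How reads shared by these paralogous genes were split is not given in the sources used here, so the shares are uncertain to that extent, and the intervals drawn cover counting error only. The shares are also not corrected for gene length, and the annotated lengths of both genes can differ between species. The part of length in the species differences of these shares was not tested.

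**Figure D4:**
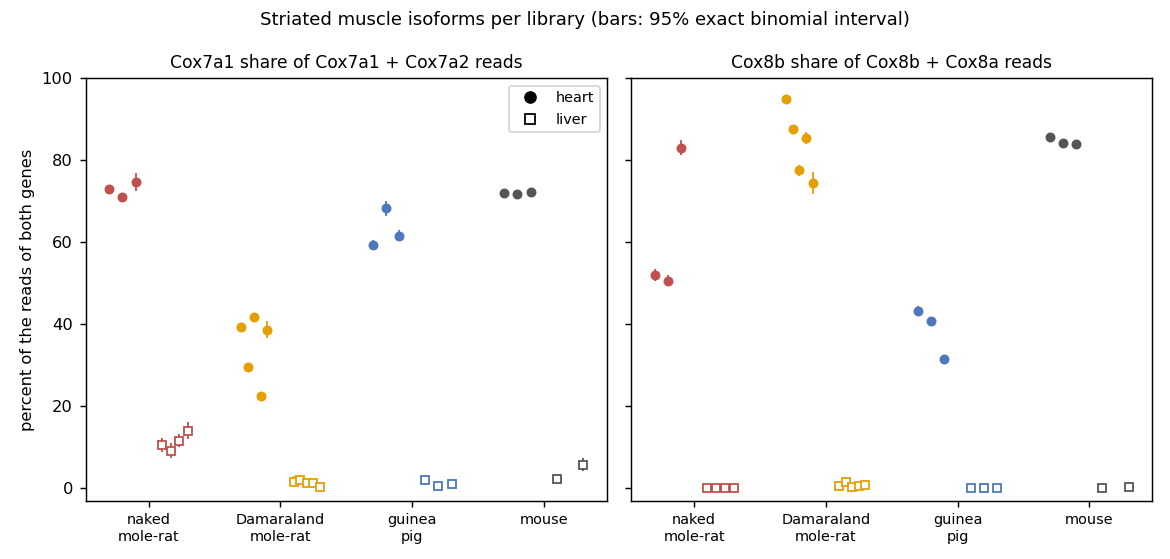
Cox7a1 reads as a percent of Cox7a1 plus Cox7a2 reads (left) and Cox8b reads as a percent of Cox8b plus Cox8a reads (right) in each library by species; filled circles are hearts, open squares livers, and bars 95% exact binomial intervals. Damaraland hearts are lowest of the hearts for Cox7a1 and guinea pig hearts lowest for Cox8b, while livers lie near 0 except for Cox7a1 in naked mole-rat.

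In complex V the catalytic F1 subunits were called in no heart comparison but were called in liver. Atp5a1, the alpha subunit, had heart means of 15.45 ± 0.11 (SD, n = 3) in naked mole-rat, 16.33 ± 0.37 (SD, n = 5) in Damaraland, 15.54 in guinea pig and 16.11 in mouse, and a mole-rat minus outgroup difference of 0.07 (SE 0.16, limma adjusted p = 0.723). Atp5b is the beta subunit that holds the catalytic sites, and Atp5c1, the gamma subunit of the rotor, was called in neither tissue. In liver Atp5a1 was lower in guinea pig than in mouse, at -1.36 (SE 0.25), and higher in naked mole-rat than in guinea pig, at 1.10 (SE 0.21). Atp5b was lower in guinea pig than in mouse liver, at -1.03 (SE 0.22). The delta subunit Atp5d of the rotor was lower in naked mole-rat than in mouse heart, at -1.86 (SE 0.28), and lower than in Damaraland heart, at -1.26 (SE 0.25).

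Atp5e (listed under ENSMUSG00000016252), the epsilon subunit of the rotor, was the F1 gene with the widest differences. In heart, the Atp5e value was 7.48, 6.93 and 8.38 in naked mole-rat, 10.73, 10.73, 10.74, 10.59 and 8.95 in Damaraland, 11.26, 10.46 and 10.44 in guinea pig and 12.73, 12.82 and 12.68 in mouse libraries. In liver, the Atp5e value was 8.27, 8.13, 7.62 and 8.28 in naked mole-rat, 9.08, 9.75, 9.60, 9.99 and 9.52 in Damaraland, 10.09, 8.98 and 9.49 in guinea pig and 12.13 and 11.85 in mouse libraries. In both tissues the naked mole-rat libraries were below, and the mouse libraries above, all others. Naked minus mouse was -5.14 (SE 0.42, limma adjusted p = 1.89e-08) in heart and -3.91 (SE 0.28, limma adjusted p = 2.69e-09) in liver, and the mole-rat minus outgroup difference, -2.76 (SE 0.28) in heart and -1.92 (SE 0.18) in liver, was called in each tissue, although the Damaraland and guinea pig libraries overlapped. Damaraland minus guinea pig was -0.37 (SE 0.38, limma adjusted p = 0.402) in heart and 0.07 (SE 0.24, limma adjusted p = 0.813) in liver.

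Among the stator genes, whose proteins keep the F1 head from turning, Atp5j (coupling factor F6) separated both mole-rats from both outgroups in heart. In heart, the Atp5j value was 10.97, 11.07 and 11.14 in naked mole-rat, 11.50, 11.36, 11.31, 10.76 and 9.82 in Damaraland, 12.39, 12.80 and 13.08 in guinea pig and 13.16, 13.24 and 13.26 in mouse libraries. In liver, the Atp5j value was 11.24, 11.56, 11.13 and 10.92 in naked mole-rat, 9.66, 9.79, 9.85, 10.06 and 9.36 in Damaraland, 10.73, 10.96 and 11.32 in guinea pig and 11.51 and 10.91 in mouse libraries. Every mole-rat heart lay below every outgroup heart, and Atp5j was the 1 member called lower in all 4 comparisons of a mole-rat with an outgroup, from -1.70 to -2.27. Of all tested genes 2.62% had that pattern, so 1 of 42 members lies near that share. The mole-rat minus outgroup difference was -1.98 (SE 0.22, limma adjusted p = 5.78e-07). In liver only the Damaraland animals were low, and naked minus Damaraland was 1.47 (SE 0.18, limma adjusted p = 1.76e-06). For Atp5f1, subunit b of the stator, the heart value was 11.38, 11.24 and 12.32 in naked mole-rat, 13.34, 12.93, 12.99, 12.25 and 12.42 in Damaraland, 13.32, 13.52 and 13.18 in guinea pig and 13.90, 14.05 and 13.98 in mouse libraries. Its naked minus mouse difference was -2.33 (SE 0.29, limma adjusted p = 2.26e-06). The naked minus Damaraland call, -1.14 (SE 0.26), was lost without naked mole-rat replicate 2 (-0.94). Atp5h, subunit d, was lower in naked mole-rat than in Damaraland (-1.11 (SE 0.27)) and mouse heart (-1.21 (SE 0.31)), and Atp5o, the oligomycin sensitivity subunit, lower than in mouse heart (-1.16 (SE 0.31)).

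The membrane part held genes that were low in guinea pig. Atp5j2 and Atp5mpl encode subunit f and a small proteolipid. In heart, the Atp5j2 value was 11.67, 11.95 and 11.78 in naked mole-rat, 12.96, 13.30, 13.03, 13.03 and 12.14 in Damaraland, 10.56, 10.60 and 10.0 in guinea pig and 13.07, 13.18 and 13.17 in mouse libraries. In heart, the Atp5mpl value was 9.82, 9.29 and 9.33 in naked mole-rat, 10.32, 10.76, 10.73, 10.27 and 9.02 in Damaraland, 7.34, 6.89 and 7.47 in guinea pig and 11.49, 11.56 and 11.55 in mouse libraries. All guinea pig hearts were below all others for both genes. Guinea pig minus mouse in heart was -2.76 (SE 0.25, limma adjusted p = 7.29e-08) for Atp5j2 and -4.30 (SE 0.33, limma adjusted p = 1.42e-08) for Atp5mpl. The liver differences were -3.46 (SE 0.38) and -3.38 (SE 0.40), with guinea pig livers from 7.01 to 8.92 and from 5.57 to 7.33. Atp5mpl was also highest in mouse in both tissues. Its liver calls for naked minus mouse, -1.19 (SE 0.38), and Damaraland minus mouse, -1.42 (SE 0.37), were lost without mouse replicate 1, at -0.86 and -1.08.

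Atp5k and Atp5l, which encode subunits e and g near the dimer interface, and the c-ring genes completed the set. For Atp5l the heart value was 9.88, 9.91 and 11.16 in naked mole-rat, 12.75, 12.77, 13.16, 11.76 and 12.10 in Damaraland, 12.14, 13.49 and 11.74 in guinea pig and 12.97, 13.11 and 12.93 in mouse libraries. Naked mole-rat hearts were the lowest, with naked minus mouse at -2.69 (SE 0.43, limma adjusted p = 3.58e-05). Atp5k had its lowest mean in Damaraland in both tissues, with Damaraland minus mouse at -2.12 (SE 0.23, limma adjusted p = 4.4e-07) in heart and -2.39 (SE 0.41, limma adjusted p = 6.84e-05) in liver. Naked minus mouse in liver, -1.12 (SE 0.42), was lost without mouse replicate 2 (-0.71) and without naked mole-rat replicate 1 (-0.87) or 2 (-0.92). Of the c-ring genes, which encode the same mature proton-carrying protein, Atp5g1 was highest in mouse heart, with naked minus mouse at -1.62 (SE 0.27) and guinea pig minus mouse at -1.70 (SE 0.27), and Atp5g3 gave naked minus mouse at -1.65 (SE 0.26). In liver Atp5g1 was higher in naked mole-rat than in Damaraland (1.41 (SE 0.21)) and guinea pig (1.37 (SE 0.24)), while Atp5g3 was lower than in mouse (-1.47 (SE 0.19)). Factor B, Atp5s, was low in all species, with heart means of 7.16 in Damaraland to 8.60 in mouse.

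Members called with 1 sign against each of the 3 other species were counted for each species. In heart 5 members were lower in naked mole-rat than in every other species (Atp5e, Atp5f1, Atp5l, Cox6a1 and Cox7c), a pattern of 4.14% of all tested genes, and none was higher. Damaraland hearts were alone in being lower for Cox7a2l and Cox8a (2.9% of all genes) and higher for Uqcr11 (3.86%). Guinea pig hearts were alone in being lower for Atp5j2, Atp5mpl, Sdhd and Uqcr11 (2.62%) and higher for Cox8a (3.99%). Of 42 members, both Damaraland counts and the guinea pig count higher lie near those shares. Mouse hearts were alone in being higher for 8 members, Atp5e, Atp5g1, Atp5mpl, Cox7a1, Cox7a2l, Cox7b, Cox8b and Uqcrq, against 6.6% of all genes, and lower for 0, against 3.8%. No member was higher in both mole-rats than in both outgroups in heart (2.06% of all genes).

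In liver naked mole-rat was alone in being lower for Atp5e, Cox7c and Uqcr10 (4.45% of all genes) and higher for Cox7a1 and Cox8a (5.83%). Damaraland livers were alone in being lower for Atp5j, Atp5k, Cox8a and Uqcrh (3.3%), and guinea pig livers for Atp5j2, Atp5mpl and Sdhd (4.28%). Mouse livers were alone in being higher for Atp5e, Atp5mpl and Cox7a2l (6.33%) and lower for 0 (5.83%). Of 41 members, the counts higher in naked mole-rat and in mouse lie near those shares. The counts lower in the other 3 patterns hold only 3 or 4 genes each. No member was higher (3.42% of all genes) or lower (2.87%) in both mole-rats than in both outgroups. Damaraland livers carried more reads of fat cell markers, 3 of 4 listed, at 591.4 to 3593 scaled reads against at most 81.3 in any other liver. Naked mole-rat livers carried bile duct markers, 3 of 4 listed, at 2136 to 2973, against 834.5 to 2047 in guinea pig and at most 395.6 in Damaraland and mouse livers. The part of both in the liver results was not tested.

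For the mole-rat minus outgroup contrast, the 5 most negative heart members were Atp5e, Cox7c, Atp5j, Cox7b and Cox8a, at -2.76, -2.29, -1.98, -1.95 and -1.55. The 5 most positive were Uqcr11, Sdhd, Atp5j2, Cox5b and Atp5mpl, at 1.45, 0.69, 0.58, 0.50 and 0.47, of which Uqcr11 alone was called. In liver the 5 most negative were Cox7c, Atp5e, Uqcr10, Atp5k and Uqcrh, at -2.03, -1.92, -1.25, -1.25 and -1.22. The 5 most positive there were Sdhd, Atp5j2, Sdhc, Cox7a1 and Uqcr11, at 1.04, 0.96, 0.91, 0.58 and 0.52, of which Sdhd alone was called. Averages over a pair of species can come from 1 of them: Cox7c, Atp5e and Uqcr10 were low in naked mole-rat, and Cox8a, Uqcrh and Atp5k in Damaraland mole-rat. The same holds for the outgroups. In heart, Atp5e and Cox7b were called higher in mouse than in every other species. Sdhd, Atp5j2, Atp5mpl and Uqcr11 were called lower in guinea pig heart than in every other species, and Sdhd and Atp5j2 also in guinea pig liver. Atp5e, Atp5k, Cox7a2l and Cox7c were called lower in both tissues, which is 33.3% of the 12 heart calls and 57.1% of the 7 liver calls; for all genes tested in both tissues the shares were 45.3% and 38.1%. The 10 animals that gave both tissues enter both comparisons.

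**Figure D5:**
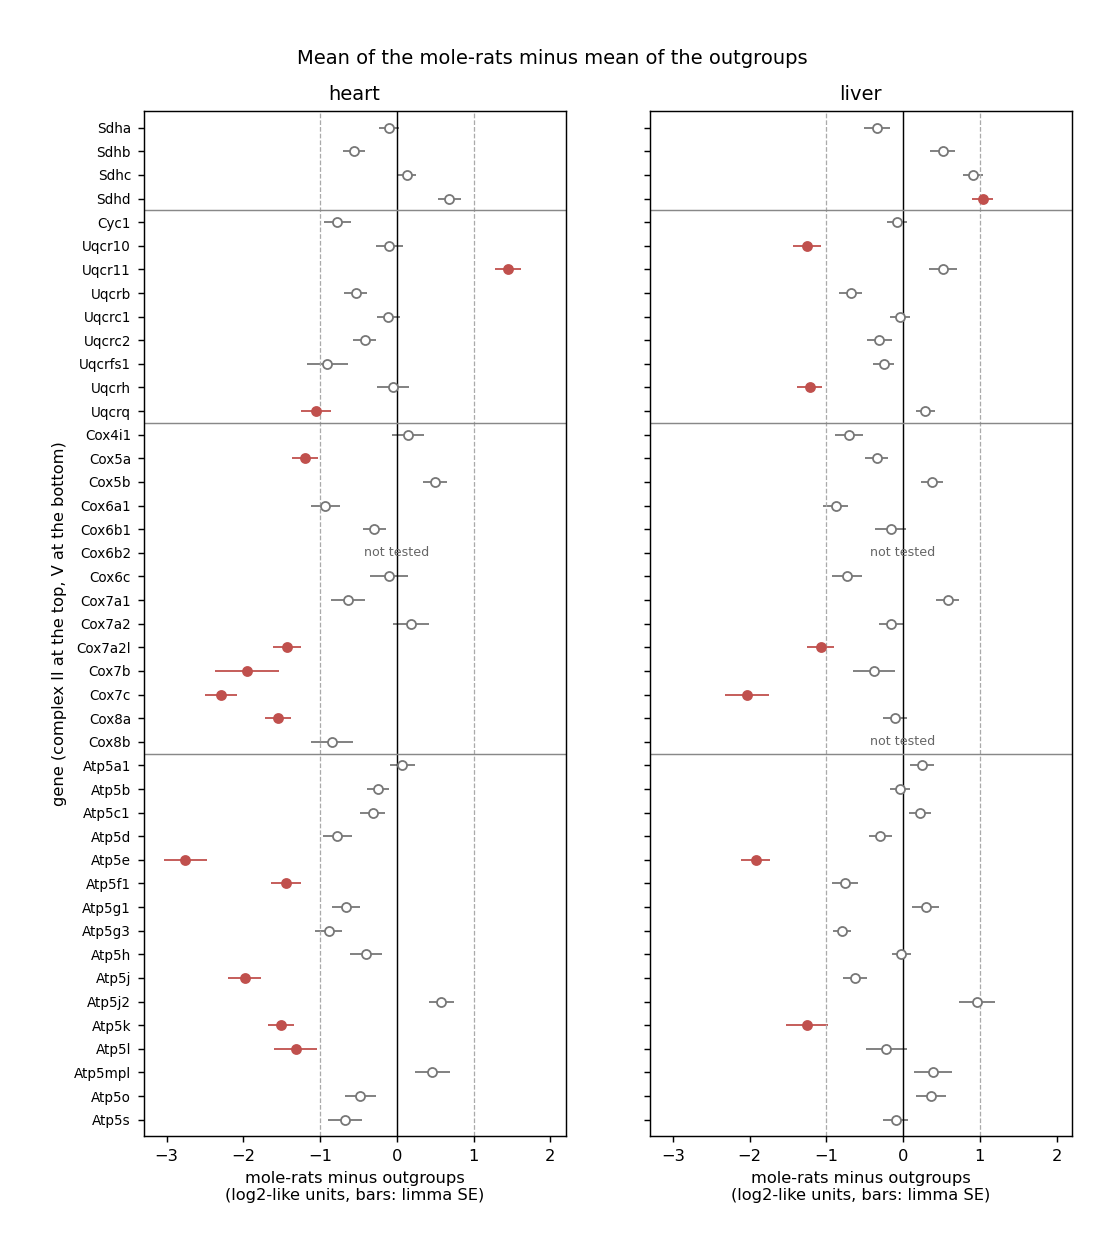
Mean of the mole-rats minus mean of the outgroups for each member (horizontal axis, log2-like units) with limma standard errors as bars, heart on the left and liver on the right; filled red points are called and open points are not, and dashed lines mark differences of 1 and -1. Called points lie mostly on the negative side, with Uqcr11 in heart and Sdhd in liver as the positive ones.

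Genes that build or regulate these complexes were described from 7 lists, of which 46 of 55 genes had rows. For the mole-rat minus outgroup contrast in heart, 0 of 3 tested complex II assembly genes, 1 of 6 complex III assembly genes (lower), 2 of 14 complex IV assembly and copper or haem delivery genes (lower), and 3 of 4 complex V assembly and inhibitor genes (1 higher, 2 lower) were called. In liver the counts were 0 of 3, 3 of 6 (1 higher, 2 lower), 3 of 14 (1 higher, 2 lower) and 1 of 4 (lower) in the same order. Of the regulators, 2 of 9 were called in heart (1 higher, 1 lower) and 1 of 8 in liver (higher), and of the electron carrier and associated genes 1 of 4 in heart and 2 of 4 in liver, all lower. Of all tested genes 12.6% were called lower and 10.8% higher in heart, and 13% and 15.1% in liver, so that 1 gene of 6 or 2 of 14 lie near the background. All 6 mitochondrially encoded subunits of complexes III to V were called lower in both tissues, with medians of -4.58 and -4.14. The low values were those of the Damaraland libraries, such as 8.15, 8.97, 8.60, 10.29 and 10.25 for mt-Co1 in heart against naked mole-rat values of 20.89, 20.42 and 19.97.

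Ndufa4, a protein first assigned to complex I and found in complex IV, had 0 reads in all 7 naked mole-rat libraries. In the hearts of the other species its value ran from 11.86 to 13.86, and in their livers from 10.53 to 12.32. For a gene at 0 reads in a whole species the fitted difference is no measure of size. Lyrm7, which delivers the Rieske protein to complex III, was also low in naked mole-rat heart, at 6.72, 6.37 and 6.80, with naked minus mouse at -2.21 (SE 0.19, limma adjusted p = 4.46e-08). Cycs, cytochrome c itself, was lowest in naked mole-rat liver, at 7.61, 7.16, 7.99 and 7.79, and naked minus mouse was -2.27 (SE 0.36, limma adjusted p = 2.81e-05).

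Among the regulators, Esrrg, an orphan nuclear receptor that drives mitochondrial genes in muscle, was lower in both mole-rats than in both outgroups in heart. Its value was 8.52, 8.60 and 8.65 in naked mole-rat, 8.43, 8.79, 8.06, 8.57 and 8.0 in Damaraland, 10.69, 10.09 and 10.31 in guinea pig and 10.34, 10.17 and 10.33 in mouse libraries. No mole-rat heart reached an outgroup heart, and the mole-rat minus outgroup difference was -1.84 (SE 0.14, limma adjusted p = 6.52e-09). Polrmt, the mitochondrial RNA polymerase, was higher in both mole-rats than in both outgroups in liver, at 10.71, 10.77, 10.50 and 11.03 in naked mole-rat, 11.99, 11.93, 11.72, 11.76 and 11.61 in Damaraland, 9.33, 9.31 and 9.37 in guinea pig and 8.81 and 8.78 in mouse. The difference was 2.21 (SE 0.11, limma adjusted p = 2.09e-11); in heart the Damaraland animals alone were high, with a mean of 10.67 against 9.24 in naked mole-rat. Ppargc1a and Tfam, central regulators of mitochondrial biogenesis, were not called in this contrast, at 0.36 (SE 0.16) and -0.10 (SE 0.12) in heart and 0.46 (SE 0.15) and -0.09 (SE 0.11) in liver. Nrf1, a transcription factor of respiratory genes, was lowest in guinea pig heart, with a mean of 7.14 against 8.16 in mouse, 8.67 in Damaraland and 9.20 in naked mole-rat.

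Several assembly factors stood apart in 1 species. Surf1, needed for haem insertion into complex IV, was higher in guinea pig than in all other species, with means of 11.89 in heart and 11.84 in liver against at most 9.27 and 9.61 elsewhere. Sco2, a copper chaperone of complex IV, was near its floor in Damaraland heart, at 5.57, 5.58, 5.54, 5.36 and 5.36, and highest in naked mole-rat liver, with a mean of 9.82. Coa5, another complex IV assembly factor, was highest in mouse in both tissues, with naked minus mouse at -4.32 (SE 0.17) in heart and -2.93 (SE 0.19) in liver, and Sdhaf4 of complex II followed, at -1.79 (SE 0.21) and -1.14 (SE 0.27). Taco1, which aids translation of mt-Co1, was lowest in guinea pig, with guinea pig minus mouse at -1.90 (SE 0.18) in heart and -1.76 (SE 0.23) in liver. Uqcc2 and Pet100, assembly factors of complexes III and IV, were higher in naked mole-rat liver than in all other species, with naked minus Damaraland at 1.80 (SE 0.19) and 2.53 (SE 0.21). Tmem70 of complex V and Ttc19 of complex III were highest in mouse heart, with naked minus mouse at -2.25 (SE 0.32) and -1.75 (SE 0.19), and Cox11 was lowest in mouse liver, with naked minus mouse at 1.64 (SE 0.22).

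In Damaraland mole-rat, and in guinea pig liver, many members deviated the same way in a library. Of the 42 members tested in heart, 35 were below the mean of the other Damaraland hearts in replicate 4 and 35 in replicate 5, with median deviations of -0.38 and -0.53. By contrast, 2 were below it in each of replicates 2 and 3, at 0.31 and 0.47. Over all tested genes the median deviation of these libraries lay between -0.02 and 0.01. In liver 40 of 41 members were below in Damaraland replicate 5, at -0.46, 1 was below in the female, replicate 4, at 0.35, and 39 were below in guinea pig replicate 2, at -0.48. This was not so in the other groups: 20 to 23 of 42 members were below in each naked mole-rat heart, 17 to 22 in each guinea pig heart, 12 to 26 of 41 in each naked mole-rat liver and 19 or 22 in the mouse livers. In mouse hearts 11 to 36 were below, with median deviations of only -0.06 to 0.05. The median SD of a member was 0.061 in mouse hearts and 0.44 in Damaraland hearts, against 0.11 and 0.26 over all tested genes. The fit took 1 spread per gene for all species together. Standard errors of differences that involve Damaraland heart are therefore not set by its own wider spread. The shifts of single libraries ran across complexes II to V: in Damaraland liver replicate 5 the medians were -0.46, -0.46, -0.44 and -0.48 in that order.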

How the data were processed

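Total RNA depleted of ribosomal RNA was sequenced from frozen heart and liver, per the labels' protocols. The authors deposited 1 table per tissue of variance-stabilised log2 values for 13928 rows named by mouse gene, of which 13921 matched a symbol; 26 columns that match no sample here were not used. The submitters' processing notes name cutadapt, Salmon 013.1, DESeq2 and GRCm38. Inverting the transformation gave whole reads for 100% of values (relative tolerance 1e-04) and hence the depth; the lowest value of a tissue stands for 0 reads.

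Each tissue was fitted with limma 3.58.1 (R 4.3.3), with 1 mean per species and a mean-variance trend, over genes whose mean was at least 1 above the floor, in 7 contrasts, and p-values were adjusted by Benjamini-Hochberg over all genes tested. The fit was tested on simulated data. Isoform shares carry 95% exact binomial intervals and were not tested between species. Isoform balances were compared between heart and liver within each species by exact permutation (scipy 1.17.1, numpy 2.4.6, pandas 2.3.3, python 3.11.15, matplotlib 3.10.9).

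Libraries of a group came from separate animals. The members, the 7 pathway lists and the cell type markers were chosen with earlier results of these data known. Named members were those with isoforms, those called alike against all 3 other species or in all comparisons of mole-rat with outgroup, the 5 largest average differences each way, core subunits and untested members; other members were named for completeness after their values were seen. Alternatives were other filters, centring, voom on the recovered reads, no size threshold, the replicate number as a block and leaving out each library.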

Additional observations from a re-analysis of the deposited data

Results flagged for a closer look

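In 89 groups of 4 or 5 libraries, 8 values lay far from the rest of their group by Dixon's criterion, which chance alone exceeds in about 1 in 20 groups. Damaraland heart replicate 5 was low for 3 genes: Atp5e was 8.95 against 10.59 to 10.74 in the other libraries, Atp5mpl was 9.02 and Cox7a2 was 11.08. Damaraland liver replicate 5 was low for Cox6a1, at 10.76, and for Sdhd, at 10.79. These are the libraries in which most members were low together. Naked mole-rat liver replicate 3 was high for Sdha, at 13.39, and for the complex II share of nuclear reads, at 0.137%. Cox8b was 4.68 in naked mole-rat liver replicate 4, which had 2 reads where the other livers of the species had 0.

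Among the named members, which alone were screened, 8 gene and species pairs had values of opposite direction in heart and liver. Their libraries did not overlap in either tissue, and the share of all genes with this pattern was not counted. The difference between the tissues was not tested. Of these pairs, 3 were called in both tissues (Uqcr11 between the mole-rats, Cox8a and Cox7a1), 3 in 1 tissue and 2, Cox5a and Sdhc, in neither. Each of the 3 was the 1 member of 41 called with opposite signs in its comparison. Of 10106 genes tested in both tissues, 141, 190 and 238 were so called in those comparisons, so these calls lie near the background. Naked minus Damaraland mole-rat was -1.16 in heart and 1.52 in liver for Uqcr11, and -0.50 and 1.23 for Cox5b. Naked mole-rat minus guinea pig was -1.31 in heart and 1.34 in liver for Cox8a, and -0.73 and 0.64 for Cox5a. Naked mole-rat minus mouse was -1.32 and 1.37 for the muscle isoform Cox7a1, and -0.55 and 0.61 for Sdhc. Damaraland mole-rat minus guinea pig was 1.73 and -0.61 for Cox7a2, and Damaraland mole-rat minus mouse was 1.21 and -0.62 for Uqcr11, with limma adjusted p = 0.0571 in liver.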

How the results depend on the processing

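The 14 counts of members called stayed within 1.5 times under both other filters, centring, voom and the removal of any 1 library. Without the size threshold 10 counts grew: in heart to 27 for the mole-rat minus outgroup contrast, 27 for naked minus Damaraland mole-rat, 19 for naked mole-rat minus guinea pig and 26 for guinea pig minus mouse; in liver to 22 for the mole-rat minus outgroup contrast, 24 for naked mole-rat minus guinea pig, 24 for naked mole-rat minus mouse, 22 for Damaraland minus guinea pig, 28 for Damaraland minus mouse and 27 for guinea pig minus mouse. The counts over all tested genes grew too: for the mole-rat minus outgroup contrast 67.3% were then called in heart and 68% in liver, against 64.3% and 53.7% of members. Over all heart genes, voom moved the mole-rat minus outgroup count from 2493 to 3835. Of 56 removals of 1 library from the isoform tests, 20 lost the call, all in Damaraland mole-rat, where the exact adjusted p became 0.06349 with fewer libraries; the balance then ran from 4.99 to 5.61 for Cox7a1 over Cox7a2 and from 9.14 to 9.82 for Cox8b over Cox8a. The 4 Damaraland animals with both tissues gave 5.65 and 9.51, and exact adjusted p = 0.375 for each; mouse had too few. Cox8b balances rest on at most 10 liver reads and the 0.5 added, and are no measure of size.

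Deviations of same-numbered libraries of different species correlated at -0.26 to 0.30 (heart) and -0.23 to 0.15 (liver). Their medians were -0.0175 and 0.0265, against -0.0095 and -0.0023 for libraries with different numbers. Whether same-numbered libraries shared a batch was not tested. With the replicate block the mole-rat minus outgroup count was 11 in heart and 8 in liver, and naked minus Damaraland mole-rat heart gave 20. In heart the block ended the calls of Uqcrq in the mole-rat minus outgroup contrast (-0.90), Cox5a (-0.77) and Cox7a2l (-0.77) in Damaraland minus guinea pig, and Atp5f1 (-0.89), Atp5mpl (-0.93) and Uqcrq (-0.92) in Damaraland minus mouse. Centring ended those of Cox5a (-0.96) and Cox7a2l (-0.995) in Damaraland minus guinea pig heart. No difference changed sign. Depth limits the isoform shares in liver.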
